A study of Mus musculus with 6 samples.

Results

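The genes described here are 43 subunits of the GABA, glycine and glutamate receptors, chosen by name from the 52636 genes of the count table. They comprise 13 GABA-A subunits, 3 rho subunits of the GABA-A receptor family (formerly GABA-C), 5 glycine receptor subunits, 4 AMPA, 5 kainate and 7 NMDA receptor subunits, and 6 metabotropic glutamate receptors (mGluR). Their transcripts were counted by single-cell RNA sequencing in 3 Dram2 WT and 3 Dram2 KO retinas of male C57BL/6J mice aged 12 months. Dram2 KO is a constitutive deletion of an exon of Dram2, a lysosomal membrane protein, made with CRISPR/Cas9 in every cell of the animal. The 3′ kit reads the end of a transcript, so the Dram2 counts do not check the genotype labels. Replicates 1 and 2 of each genotype carry the label batch 2 and replicate 3 of each carries batch 1. The labels do not say whether each retina came from a separate animal, and their protocol text speaks of 1 sample per genotype, so p-values measure only the spread between these 6 samples, which may be technical.

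Ionotropic GABA, glycine and glutamate receptors are channels of several subunits around a pore, whereas mGluRs are single-gene, G protein-coupled receptors. In the retina, photoreceptors release glutamate onto bipolar cells. OFF bipolar cells receive it through AMPA and kainate receptors, and ON bipolar cells through an mGluR. Amacrine and horizontal cells release GABA or glycine, and the rho channels of bipolar axon terminals are known for slow, sustained GABA currents. Other subunits of these receptors were not analysed here, so a subunit called leading leads among the 43.

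Counts are unique molecular identifiers (UMIs, each an RNA molecule captured once), summed per retina in each of the 5 cell types that the authors assigned. Levels are the share of that sum in CPM, UMIs of a gene for every 1000000 UMIs. The 3′ kit counts a molecule once whatever its length, so genes were compared without length scaling. Photoreceptors held 2892834 to 4675272 UMIs per retina, interneurons 245755 to 1406842, glia 145343 to 453224, mesenchymal cells 77876 to 114066 and RPE cells (retinal pigment epithelium) 17073 to 35968. A count of 0 (limit of 3 counts) thus allowed a level of 0.642 to 1.04 CPM depending on the retina in photoreceptors. The same limit was 2.13 to 12.2 CPM for interneurons and 6.62 to 20.6 CPM for glia, for counting error only. Summed rod and cone markers were highest in photoreceptors, bipolar markers in interneurons, Muller glia markers in glia and RPE markers in RPE cells. Interneurons also held 8105 to 11882 CPM of the 9 rod markers. The cells deposited as mesenchymal held 1633 to 5889 CPM of 7 pericyte, 4774 to 11711 CPM of 8 endothelial and 5457 to 27428 CPM of 10 microglial markers.

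The 43 members together gave 15513 UMIs in typed cells, of which 9142 lay in interneurons, 5719 in photoreceptors, 595 in glia, 32 in mesenchymal cells and 25 in RPE cells. At least 20 UMIs were counted for 30 members. The GABA-A subunits Gabra6 and Gabrp had 0 UMIs in every type. Another 11 members had fewer than 20, namely Gabrb2 (18), Gabrg1 (11), Gabre (6), Gabrq (1), Glra4 (9), Grin2a (14), Grin2c (7), Grin3b (10), Grm2 (5), Grm3 (2) and Grm4 (19). No member passed 5 UMIs in mesenchymal cells or 3 in RPE cells, so no class was ordered in these 2 types.

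**Figure D1:**
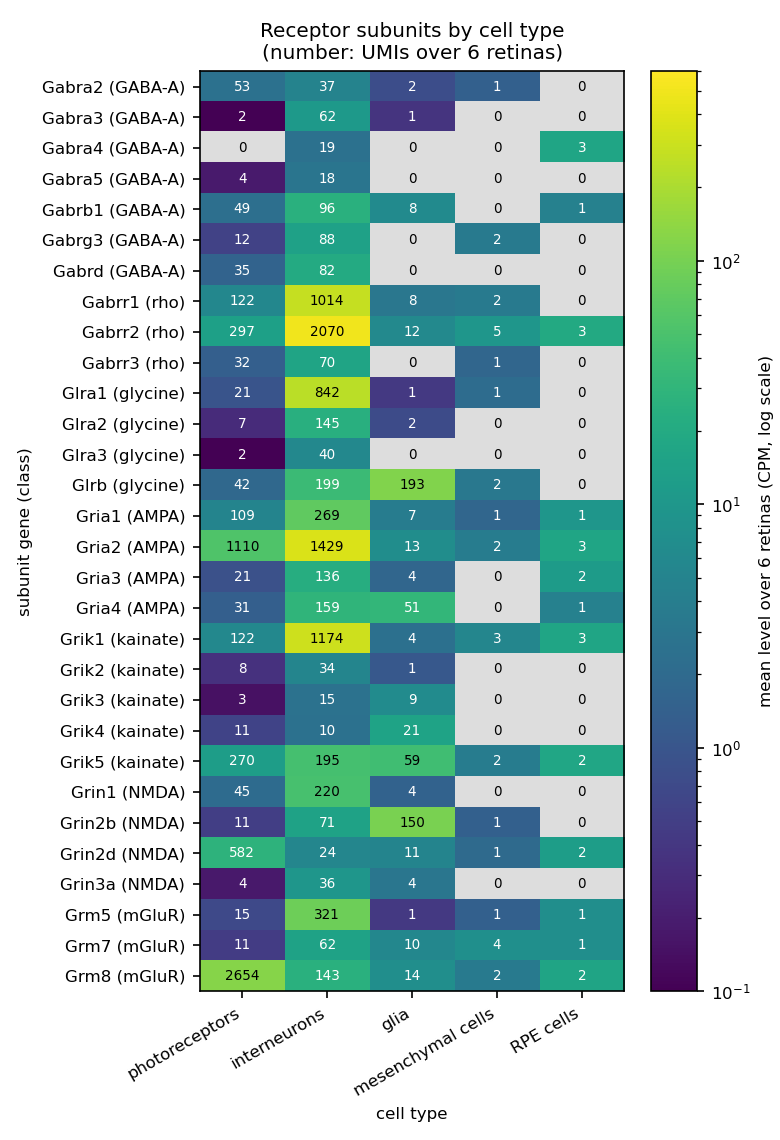
The 30 members with at least 20 UMIs (rows, with class) in the 5 cell types (columns); colour is the mean CPM over 6 retinas on a log scale, the number is the UMI total, and grey is 0 UMIs. Gabrr2, Gria2, Grik1, Gabrr1 and Glra1 are highest in interneurons, Grm8 and Grin2d in photoreceptors, and Glrb and Grin2b in glia.

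Of the 28 members with at least 20 UMIs in interneurons and photoreceptors together, 21 were higher in interneurons than in photoreceptors of the same retina in all 6 retinas, against 26% of all 18481 genes with that many UMIs. Grin2d and Grm8 were lower in interneurons in all 6, a pattern that 16.3% of all genes shared. The other 5 (Gabra2, Gabra5, Gabrg3, Glra3 and Grik2) were mixed. Only 17 of the 28 had at least 20 UMIs in photoreceptors. Some of the rest, such as Gabra3 (62 UMIs in interneurons, 2 in photoreceptors), passed the filter through interneurons. The count of 21 is thus no measure of enrichment. The authors' types were clustered from the same cells, so this is a description with no test.

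The rho subunits formed the most abundant class in interneurons, at 797 ± 133 CPM (SD, n = 6 retinas), the sum of 3 genes. Gabrr2, the rho2 subunit, stood at 548, 478 and 430.0 CPM in the 3 Dram2 WT retinas and 582, 468 and 514 CPM in the 3 Dram2 KO retinas. Gabrr1, the rho1 subunit, stood at 289, 255 and 189 CPM in the 3 Dram2 WT retinas and 439, 278 and 216 CPM in the 3 Dram2 KO retinas. Gabrr2 exceeded Gabrr1 in each of the 6 retinas and made up 65.6% of the class's UMIs. Gabrr3, the rho3 subunit, ranged from 4.07 to 28.5 CPM. In glia, rho transcripts were near the limit of counting, with 12 UMIs of Gabrr2 and 8 of Gabrr1.

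Gabrr2 (chromosome 4, 33062999 to 33095865, plus strand) and Gabrr1 (chromosome 4, 33132521 to 33163588, plus strand; GRCm38 coordinates of GENCODE M21) are neighbours, 36.7 kb apart, and the 2 genes led this class in every type where it was ordered. Their promoter windows are shown because the pair are neighbours and lead the class. The windows are those of RefSeq for GRCm38.p6, 250 bases before to 50 after the start, at chr4:33062862-33063161 and chr4:33132306-33132605, both plus strand, 5′ to 3′. Capitals mark matches to TAATCC, the core bound by OTX-type homeodomain factors, or to CATCTG, an E-box bound by bHLH factors, on either strand.
Gabrr2: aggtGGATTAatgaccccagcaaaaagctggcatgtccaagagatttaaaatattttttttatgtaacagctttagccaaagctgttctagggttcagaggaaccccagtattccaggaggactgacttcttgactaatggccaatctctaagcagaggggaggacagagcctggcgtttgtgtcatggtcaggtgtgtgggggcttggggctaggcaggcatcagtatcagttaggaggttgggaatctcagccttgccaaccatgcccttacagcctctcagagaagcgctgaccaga
Gabrr1: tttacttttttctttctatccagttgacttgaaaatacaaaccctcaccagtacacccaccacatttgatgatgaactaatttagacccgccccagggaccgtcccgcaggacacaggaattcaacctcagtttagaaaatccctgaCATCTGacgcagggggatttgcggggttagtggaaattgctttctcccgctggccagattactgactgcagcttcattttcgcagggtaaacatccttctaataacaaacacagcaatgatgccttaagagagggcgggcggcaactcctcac
Gabrr2 held GGATTA, the reverse complement of TAATCC, 246 bases before its start, and Gabrr1 held CATCTG 103 bases before its start. TAATCC was found in 7.06% of the 32851 promoter windows of this length and CATCTG in 17.2%. A match describes these letters and not a bound site. Windows were found for 33 of the 43 members.

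Among glycine receptor subunits, the leader differed between types. Glra1, the alpha1 subunit that binds glycine, led in interneurons at 408, 274 and 154 CPM in the 3 Dram2 WT retinas and 228, 257 and 125 CPM in the 3 Dram2 KO retinas. Glrb, the beta subunit that anchors the channel to gephyrin, was the runner-up there at 37.6 ± 18.7 CPM (SD, n = 6). In glia the order turned, with Glrb at 118, 107 and 161 CPM in the 3 Dram2 WT retinas and 134, 55.0 and 114 CPM in the 3 Dram2 KO retinas while Glra1 had 1 UMI. Glrb was higher in glia than in interneurons of the same retina in all 6 retinas, and it made up 98.5% of the glial glycine receptor UMIs. Of all genes compared, 14.8% were likewise higher in glia in all 6. Photoreceptors held 42 UMIs of Glrb and 21 of Glra1 in all.

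Listed GABA-A subunits other than rho were sparse. In interneurons the class sum was 88.7 ± 20.1 CPM. Gabrb1, a beta subunit, had the highest mean at 24.9 ± 9.70 CPM, and Gabrd, the delta subunit of extrasynaptic receptors, came next at 20.5 ± 9.48 CPM. Gabrb1 was the highest member in only 2 of 6 retinas. It was above Gabrd in all 3 Dram2 WT retinas and below it in all 3 Dram2 KO retinas. In Dram2 KO this order rests on 5 UMIs of Gabrb1 against 9 of Gabrd, 9 against 10 and 21 against 32. It was noted after the values were seen, and how many other gene pairs change order was not computed. The values, and the share of all genes whose genotype groups were apart, are given with the genotype comparison. In photoreceptors Gabra2, an alpha subunit, and Gabrb1 were level at 2.53 ± 0.518 CPM and 2.41 ± 1.01 CPM. Gabrb1 (chromosome 5, 71658113 to 72149037, plus strand) overlaps the start of Gabra4 (chromosome 5, 71569749 to 71658308, minus strand), and the counting's use of strand is not given in the sources used here.

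AMPA receptors were led by Gria2, the subunit that makes them impermeable to calcium after RNA editing. In interneurons it stood at 496, 416 and 316 CPM in the 3 Dram2 WT retinas and 309, 352 and 277 CPM in the 3 Dram2 KO retinas, and the runner-up Gria1 at 71.3 ± 21.6 CPM. In photoreceptors Gria2 stood at 80.0, 77.7 and 28.2 CPM in the 3 Dram2 WT retinas and 47.4, 53.8 and 37.6 CPM in the 3 Dram2 KO retinas, and Gria1 at 5.02 ± 1.90 CPM. Gria2 was thus the highest AMPA subunit in all 6 retinas of both types, with 87.3% of the class's UMIs in photoreceptors and 71.7% in interneurons. In glia the leader was Gria4, at 32.3 ± 7.51 CPM, above Gria2 at 7.01 ± 4.21 CPM in all 6 retinas.

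Kainate receptors were led by Grik1 in interneurons and by Grik5 in photoreceptors and glia. Grik1 encodes GluK1, which forms channels alone. It stood at 387, 313 and 260.2 CPM in the 3 Dram2 WT retinas and 358, 343 and 204 CPM in the 3 Dram2 KO retinas. Grik5 encodes GluK5, which needs a partner from Grik1, Grik2 or Grik3 to form a channel. Grik5 was close to level in interneurons, at 46.3 ± 3.47 CPM, and glia, at 42.1 ± 22.0 CPM, and was lower in photoreceptors, at 12.8 ± 1.89 CPM. It was the highest kainate subunit in all 6 retinas of photoreceptors and in 5 of 6 of glia, where Grik4, another partner-dependent subunit, followed at 15.8 ± 9.89 CPM on 21 UMIs.

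Each type had its own leading NMDA receptor subunit. Grin1, the obligatory glycine-binding subunit, led in interneurons at 38.0, 45.7 and 54.7 CPM in the 3 Dram2 WT retinas and 36.6, 51.8 and 57.1 CPM in the 3 Dram2 KO retinas. Photoreceptors were led by Grin2d, a glutamate-binding subunit of slowly closing receptors, at 24.3, 29.2 and 30.7 CPM in the 3 Dram2 WT retinas and 36.3, 24.0 and 23.5 CPM in the 3 Dram2 KO retinas. Glia were led by Grin2b, another glutamate-binding subunit, at 87.8, 114 and 66.2 CPM in the 3 Dram2 WT retinas and 107, 144 and 109 CPM in the 3 Dram2 KO retinas. Each of these was the highest NMDA subunit in all 6 retinas of its type. Grin1 itself was low in photoreceptors, at 2.06 ± 1.31 CPM, and in glia, with 4 UMIs in all, while the runners-up were Grin2b in interneurons at 14.8 ± 7.42 CPM and Grin2d in glia at 5.07 ± 5.89 CPM.

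Grm8, an mGluR that lowers cyclic AMP and acts as a presynaptic autoreceptor, was the most abundant member in photoreceptors. It stood there at 139, 137 and 121 CPM in the 3 Dram2 WT retinas and 75, 125 and 145 CPM in the 3 Dram2 KO retinas, on 2654 UMIs, and made up 98.7% of the UMIs of the listed mGluRs. The lowest value, in Dram2 KO replicate 1, lay apart from the other 5, which held at least 121 CPM. In interneurons Grm5, which signals through phospholipase C, led at 107, 132 and 53.3 CPM in the 3 Dram2 WT retinas and 81.4, 90.6 and 64.0 CPM in the 3 Dram2 KO retinas, and Grm8 followed at 24.8 ± 19.2 CPM. In glia the highest listed mGluRs were Grm8 with 14 UMIs and Grm7, also a cyclic AMP-lowering receptor, with 10, and neither led in more than 3 retinas.

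**Figure D2:**
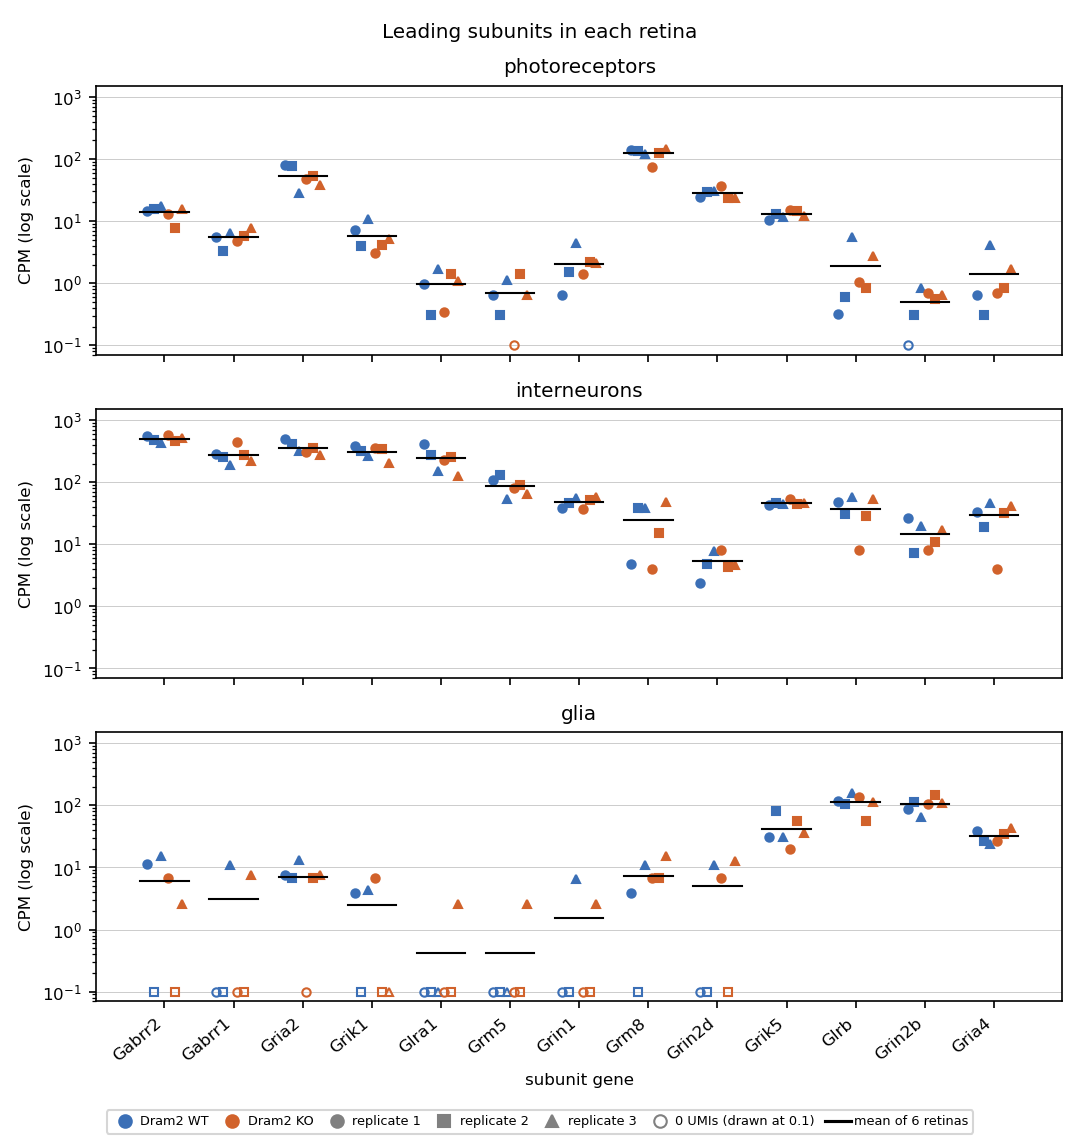
Levels (CPM, log scale) of 13 leading members in photoreceptors, interneurons and glia, 1 point per retina, coloured by genotype and shaped by replicate, with the mean as a bar and open symbols for 0 UMIs (drawn at 0.1). Gabrr2 lies between 430.0 and 582 CPM in interneurons, Grm8 between 75 and 145 CPM in photoreceptors, and the genotypes overlap for each member tested.

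Transcripts that mark bipolar and amacrine cells were also counted in photoreceptors. Over 36 markers of these cells with at least 100 UMIs in interneurons, the photoreceptor level was 2.43% of the interneuron level at the median, with quartiles of 1.88% and 4.66%. Median depths were 397 to 523 UMIs per photoreceptor and 1527 to 2275 per interneuron. Single markers varied widely, up to 71.5% for Otx2 and 88.6% for Prkca. Of the 17 members with at least 20 UMIs in photoreceptors, 2 lay below the quartiles, Glra1 (0.398%) and Grik1 (1.84%). Another 4 lay between them, Gabrr1 (2.02%), Gabrr2 (2.78%), Gria3 (3.94%) and Grin1 (4.36%). The other 11 lay above, from Gria4 (4.72%), Glrb (4.95%), Gria1 (7.04%), Gabrd (7.80%), Gabrr3 (8.86%) and Gabrb1 (9.68%) to Gria2 (15%), Grik5 (27.7%) and Gabra2 (50.8%), with Grm8 and Grin2d above their interneuron level. Whether these molecules came from the photoreceptors themselves was not tested. In the other direction, the 9 rod markers summed in interneurons to 13.7% of their photoreceptor level, and the 9 cone markers to 65.0% of theirs (2857 to 5054 CPM in interneurons and 5249.5 to 8960.3 CPM in photoreceptors), beside 20.1% for Grm8 and 19.1% for Grin2d. In glia the rod markers summed to 13.0% of their photoreceptor level and the cone markers to 9.26%. Grm8 stood there at 5.89%, Gria2 at 13.0% and Grin2d at 18.1% of theirs. The source of these glial molecules was not tested.

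Cones and rods shared the photoreceptor label. Photoreceptors with at least 2% of their UMIs and at least 5 UMIs on 9 cone markers were taken as cone-rich, a threshold chosen after the values were seen, which left 40 cells with a share of 1 to 3%. They were 918 cells with a median of 1876 UMIs, beside 41441 others, mostly rods by their markers, with a median of 421. Grm8 was lower in cone-rich cells than in the others of the same retina in all 6 retinas, at 20.9 to 46.5 against 77.0 to 152 CPM. Gria2 was likewise lower in all 6, at 3.12 to 13.9 against 30.2 to 86.4 CPM. Grin2d showed the same order, at 0 to 11.6 against 24.8 to 38.3 CPM. The photoreceptor leaders of the AMPA, NMDA and mGluR classes were thus all lower in cone-rich cells, and Grin2d was at 0 UMIs there in 1 retina.

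The order was opposite for Gabrd and Gabrr3. Gabrd stood at 7.92, 17.9 and 9.29 CPM in the 3 Dram2 WT retinas and 5.64, 13.3 and 15.6 CPM in the 3 Dram2 KO retinas of cone-rich cells and at 0.304 to 1.15 CPM in the others. Gabrr3 had 21 UMIs in cone-rich cells, 11.9 CPM with the retinas pooled, and 11 UMIs in the others, 0.568 CPM. Both rest on few molecules, and in 2 retinas Gabrr3 was not counted in cone-rich cells. Grik5 differed less, with pooled levels of 15.9 and 12.5 CPM and overlapping ranges. Of 17 members with at least 20 UMIs in photoreceptors, 9 were higher in cone-rich cells and 8 in the others by pooled level, beside 49.2% of all genes with that many UMIs higher in cone-rich cells. All 17 kept their direction at a threshold of 4%. That threshold kept 862 of the 918 cone-rich cells, so it is a weak check.

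**Figure D3:**
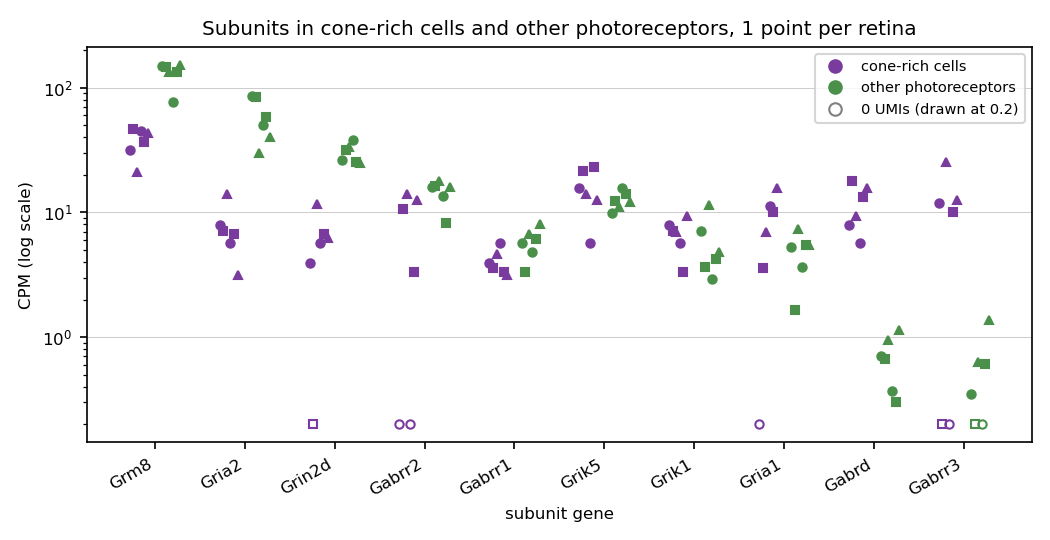
Levels (CPM, log scale) of 10 members in cone-rich cells and in other photoreceptors, 1 point per retina, shaped by replicate as in the plot of leading members, with open symbols for 0 UMIs (drawn at 0.2). Cone-rich cells lie below the others for Grm8, Gria2 and Grin2d in all 6 retinas and above them for Gabrd in all 6.

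Interneurons were divided further by clustering their 2083 cells without the 43 members among the features. Of 15 clusters, 3 were amacrine-like (322 cells), 5 were bipolar-like (1045 cells), 2 were led by rod or cone genes (93 cells) and 5 stayed unnamed, and the last are called here by their leading gene. Names rest on at least 3 markers of a list being at least 2-fold above the other interneurons, a threshold chosen after the values were seen. The list with the most such markers gave the name, or bipolar where both cone bipolar lists passed. Amacrine-like clusters also passed for other lists. The cluster led by C1ql2 had 12 amacrine, 4 ganglion and 3 Muller glia markers that high. That led by Stac2 had 8 amacrine and 3 horizontal, and that led by Nhlh2 7 amacrine and 3 Muller glia. Ganglion or horizontal cells within these clusters were not told apart from amacrine cells. All 15 clusters come from the same interneurons, so the levels below, of UMIs pooled over the 6 retinas unless stated, are a description. Amacrine-like cells were unevenly captured, with 269 of 322 in the 2 retinas of batch 1, against 484 of 1045 bipolar-like cells.

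Of the 26 members with at least 20 UMIs in interneurons, 15 were higher in amacrine-like cells and 11 in bipolar-like cells, beside 50.2% of all genes higher in amacrine-like cells. Glra2, the alpha2 glycine receptor subunit, stood at 128 CPM in amacrine-like and 0.523 CPM in bipolar-like cells. Gria3, an AMPA subunit, had 123 UMIs in amacrine-like and 0 in bipolar-like cells, which allows up to 1.57 CPM. These 2 genes, Gabra3 and Gria4 were higher in amacrine-like cells of all 6 retinas (Dram2 KO replicate 1 had only 3 such cells), and Gria4 stood at 112 CPM in amacrine-like and 6.28 CPM in bipolar-like cells. Gabrr1, Gabrr2, Glra1, Grik1 and Grm5 were higher in bipolar-like cells of all 6 retinas, with Gabrr2 at 11.0 CPM in amacrine-like and 656 CPM in bipolar-like cells. Gria2 stood at 289 CPM in amacrine-like and 314 CPM in bipolar-like cells with the retinas pooled, yet was higher in amacrine-like cells in 4 of 6 retinas, among them both of batch 1, so its order was not settled.

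Amacrine-like clusters differed among themselves. The cluster led by Nhlh2 held 113 of the 145 interneuron UMIs of Glra2, at 221 CPM, and 97 of the 143 of Grm8, at 189 CPM, with Grik2 at 48.8 CPM (25 UMIs). The cluster led by Stac2 held Gria3 at 202 CPM (73 UMIs), Gabrg3 at 116 CPM (42 UMIs) and Gabra3 at 88.4 CPM (32 UMIs), with 0 UMIs of Grm8, which allows up to 8.29 CPM. The cluster led by C1ql2 had the highest Gabra2, at 86.3 CPM (19 UMIs). Gabrg3 and Gabra3 encode a gamma and an alpha subunit, and Gabrg3 reached 64.4 CPM (33 UMIs) in the Nhlh2 cluster.

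The kainate subunit Grik1 separated the bipolar-like clusters. In the OFF cone bipolar-like cluster (led by Slit2) Grik1 stood at 1102, 1035 and 836 CPM in the 3 Dram2 WT retinas and 1024, 1717 and 1284 CPM in the 3 Dram2 KO retinas. In the unnamed Otor cluster it stood at 1348, 1207 and 1471 CPM in the 3 Dram2 WT retinas and 1313, 1212 and 1592 CPM in the 3 Dram2 KO retinas. In the ON cone bipolar-like cluster (led by Ngfr) it was 1.88 CPM (1 UMI), and in the rod bipolar-like cluster (led by Sebox) 22.7 CPM (8 UMIs). These first 2 clusters held 375 and 633 of the 1174 Grik1 UMIs of interneurons. Apart from the clusters with rod or cone leading genes, the next highest was the unnamed cluster led by Adgrb1, at 125 CPM (10 UMIs). Grm5 had the opposite distribution, with 2 UMIs in the OFF cone bipolar-like and 0 in the Otor cluster, which allows up to 6.65 CPM. Grm5 stood at 182 CPM (64 UMIs) in the rod bipolar-like cluster and was highest in the bipolar-like cluster led by Cck, at 228 CPM (102 UMIs).

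Gria2 was nearly absent from the counts of the rod bipolar-like cluster. It had 2 UMIs there, 5.68 CPM with an exact 95% Poisson interval of 0.688 to 20.5 CPM for counting error, and both came from Dram2 KO replicate 1. In the other 14 clusters Gria2 stood between 201 and 627 CPM. The cluster had the highest Gabrr1 of all clusters, at 463 CPM (163 UMIs), and held 315 CPM (111 UMIs) of Glra1. Its AMPA transcripts were of Gria1, at 85.2 CPM (30 UMIs), with 0 UMIs of Gria3 and of Gria4, which allows up to 8.52 CPM of each.

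Glycine receptor and rho subunits also varied among these clusters. Gabrr2 was highest in the unnamed cluster led by Igfn1, at 1637 CPM (468 UMIs), and in the ON cone bipolar-like cluster, at 1082 CPM (577 UMIs). Gabrr1 was above Gabrr2 in the unnamed cluster led by Otor, at 428 CPM (193 UMIs) against 357 CPM (161 UMIs) and in 5 of 6 retinas. The same order held in the bipolar-like cluster led by Rbp4, with Gabrr1 at 337 CPM (82 UMIs) and Gabrr2 at 32.9 CPM (8 UMIs), and Gabrr3 was highest there, at 78.1 CPM (19 UMIs). Glra1 was highest in the OFF cone bipolar-like cluster, at 1084, 750.1 and 762 CPM in the 3 Dram2 WT retinas and 819, 885 and 489 CPM in the 3 Dram2 KO retinas. It was also high in the unnamed cluster led by Cpne9, at 691 CPM (82 UMIs), and near 0 in the ON cone bipolar-like cluster, at 5.63 CPM (3 UMIs). Gabrb1 was highest in the OFF cone bipolar-like cluster, at 122 CPM (41 UMIs), and Grin2b in the Cpne9 cluster, at 202 CPM (24 UMIs). Grin3a, an NMDA subunit that lowers calcium flux, had 36 interneuron UMIs and stood at 60.4 CPM (27 UMIs) in the Cck cluster and 59.0 CPM (7 UMIs) in the Cpne9 cluster.

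**Figure D4:**
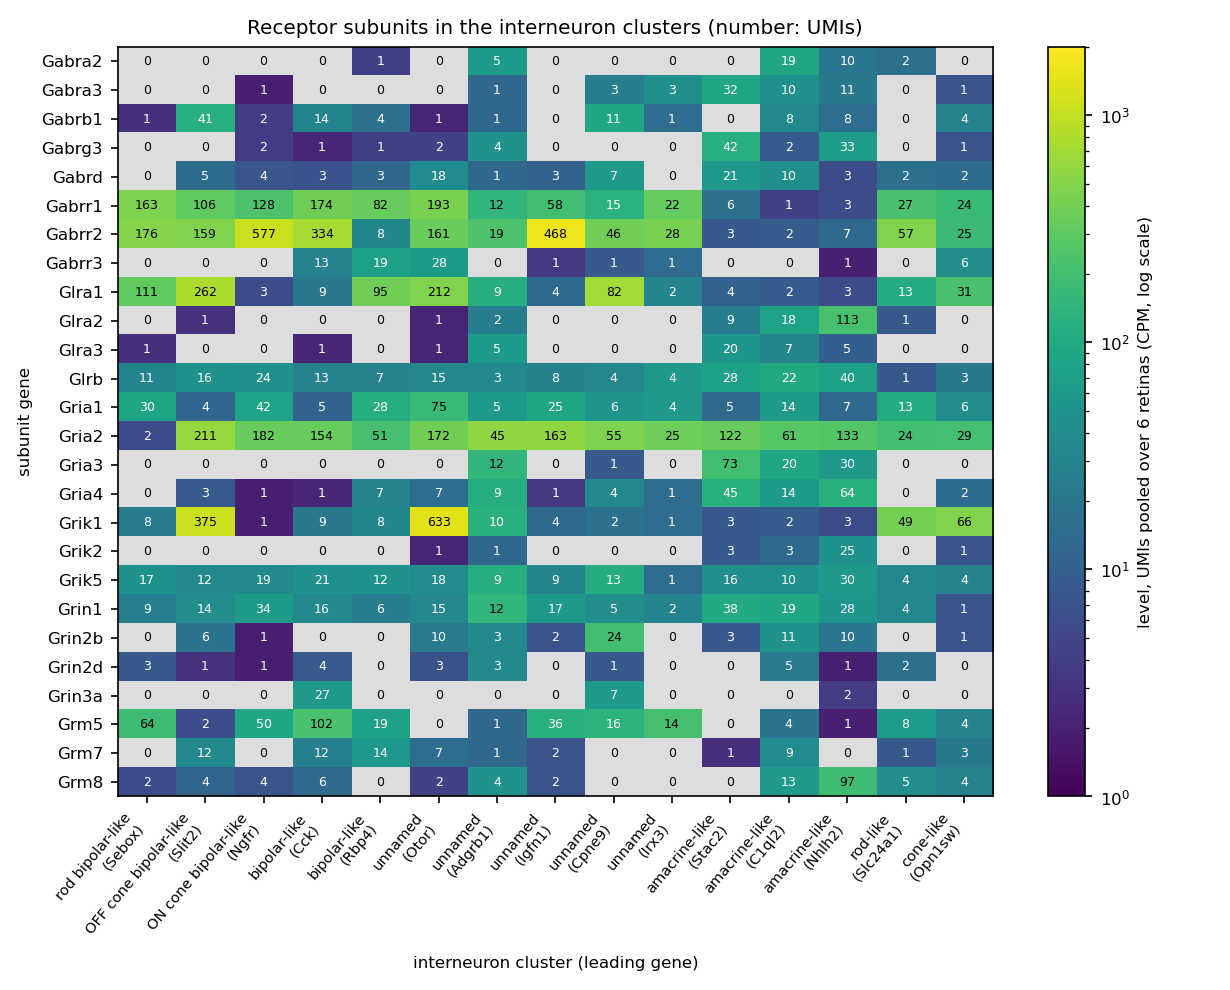
The 26 members with at least 20 UMIs in interneurons (rows) in the 15 interneuron clusters (columns, with leading gene); colour is the CPM of UMIs pooled over 6 retinas on a log scale, the number is the UMI count, and grey is 0. Grik1 stands at 1114 and 1404 CPM in the OFF cone bipolar-like and Otor clusters, and Gria2 at 5.68 CPM in the rod bipolar-like cluster.

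Glra2 and Gria3, both higher in amacrine-like cells, were higher in batch 1 in the interneuron sums of both genotypes. Glra2 stood at 38.4 and 53.3 CPM in the Dram2 WT and Dram2 KO retinas of batch 1 and between 12.0 and 15.1 CPM in the 4 retinas of batch 2. Gria3 stood at 44.1 and 41.1 CPM in batch 1 and between 4.07 and 28.9 CPM in batch 2. The 14 amacrine markers summed to 4917 and 5289.8 CPM in batch 1 and to 826 to 1686 CPM in batch 2, and their part in the members' levels was not tested. In summed counts, fewer cells of a kind and less RNA per cell cannot be told apart.

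The genotype comparison asks whether loss of Dram2 goes with other receptor subunit levels within a cell type. No member was called between Dram2 KO and Dram2 WT in any of the 3 types where members could be tested. After a low-count filter, 8 members were tested in photoreceptors, 13 in interneurons and 2 in glia, and none in mesenchymal or RPE cells. By edgeR's quasi-likelihood test with Benjamini-Hochberg adjustment over all genes, 0 of these 23 tests passed an adjusted p of 0.05, and neither did any other gene of the 3 types (0% called in photoreceptors, 0% in interneurons and 0% in glia). At an unadjusted p under 0.05 the count of members was also 0 in this fit, against 0.835%, 1.12% and 1.23% of the genes tested in the 3 types (8.74% in mesenchymal and 3.57% in RPE cells, where no member was tested), and limma-voom and DESeq2 called 0 members too. For none of the 23 did the 3 Dram2 KO retinas lie wholly above or below the 3 Dram2 WT retinas, as 5.55%, 6.21% and 5.88% of the genes tested did.

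The values behind the smallest p in each type were as follows. In photoreceptors Grik1 stood at 7.12, 3.95 and 10.9 CPM in the 3 Dram2 WT retinas and 3.11, 4.18 and 5.13 CPM in the 3 Dram2 KO retinas, with a log2 fold change of -0.77 ± 0.44 (SE; unadjusted p = 0.114, adjusted p = 0.998, edgeR). Grik5 stood at 10.4, 13.1 and 11.5 CPM in the 3 Dram2 WT retinas and 15.2, 14.8 and 12.2 CPM in the 3 Dram2 KO retinas, with a log2 fold change of 0.29 ± 0.23 (SE; unadjusted p = 0.229, adjusted p = 0.998, edgeR). These 2 kainate subunits had opposite signs, and their genotype groups overlapped. Gabrr2 had a log2 fold change of -0.36 ± 0.29 (SE; unadjusted p = 0.246, adjusted p = 0.998, edgeR) in photoreceptors, where its level relative to interneurons was between the marker quartiles given above. The 9 cone markers summed in photoreceptors to 6071, 6237 and 8960 CPM in Dram2 WT and 5249.5, 5921 and 5571 CPM in Dram2 KO. Their part in the members' photoreceptor differences was not tested. In interneurons Gria2, whose retinas are listed above, had the smallest p, with a log2 fold change of -0.37 ± 0.23 (SE; unadjusted p = 0.133, adjusted p = 1.00, edgeR). Gria1 stood at 83.0, 48.1 and 51.2 CPM in the 3 Dram2 WT retinas and 93.6, 94.9 and 57.1 CPM in the 3 Dram2 KO retinas, with a log2 fold change of 0.42 ± 0.32 (SE; unadjusted p = 0.221, adjusted p = 1.00, edgeR). Gabrr1 had a log2 fold change of 0.35 ± 0.30 (SE; unadjusted p = 0.267, adjusted p = 1.00, edgeR). In glia Glrb had a log2 fold change of -0.40 ± 0.31 (SE; unadjusted p = 0.218, adjusted p = 1.00, edgeR), and Grin2b had a log2 fold change of 0.42 ± 0.34 (SE; unadjusted p = 0.233, adjusted p = 1.00, edgeR), again with overlapping groups.

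Single retinas moved 7 of these 8 differences by over 1.5 times, though none changed sign. Without Dram2 WT replicate 3, Grik1 in photoreceptors was at -0.35, Gria1 and Gabrr1 in interneurons at 0.27 and 0.17, and Glrb and Grin2b in glia at -0.26 and 0.14. Without Dram2 KO replicate 2, Gabrr2 in photoreceptors was at -0.12, Gria1 at 0.25, Glrb at -0.18 and Grin2b at 0.25. Without Dram2 KO replicate 3, Gabrr2 was at -0.63, Gria1 at 0.69 and Gabrr1 at 0.58. Gria2 was at -0.19 and Gria1 at 0.70 without Dram2 WT replicate 1, Gabrr1 was at 0.05 without Dram2 KO replicate 1, and Grin2b was at 0.65 without Dram2 WT replicate 2.

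Of the 23 tests, 10 gave a higher and 13 a lower level in Dram2 KO. The median log2 fold change was -0.08 over the members tested in photoreceptors and -0.08 over those in interneurons, beside -0.01 and -0.01 over all genes tested. Standard errors ran from 0.20 to 0.66 on the log2 scale, the largest for Grm8 in interneurons. The lowest adjusted p of any of these members under any alternative was 0.697, for Gria2 in photoreceptors without Dram2 WT replicate 3 (log2 fold change -0.74, unadjusted p = 0.00619, edgeR). Gria3 in interneurons, at -0.33 ± 0.65 on the log2 scale, depended on single retinas, with -2.02 without Dram2 KO replicate 3 and 0.37 without Dram2 WT replicate 3, both of the batch rich in amacrine-like cells.

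In interneurons the same-numbered retinas of both genotypes deviated together. Number 3 is also batch 1 in both, so pair and batch cannot be told apart in these interneuron sums. Of the 13 members tested there, 4 were lower in the Dram2 KO retina of all 3 pairs (Gria2, Glra1, Glrb and Gria3), against 13.8% of all genes tested. Another 2 were higher in all 3 (Gria1 and Gabrr1), against 11.3%. Bipolar markers also differed within these pairs. The 11 OFF cone bipolar markers summed to 1893, 1738 and 1067 CPM in Dram2 WT interneurons and 1383, 1366 and 1067 CPM in Dram2 KO, lower in pairs 1 and 2 and level in the third. The OFF cone bipolar-like cluster, where Glra1 and Gria2 were highest, held 32, 38 and 42 cells of 260, 241 and 610 Dram2 WT interneurons and 10, 23 and 29 of 160, 276 and 536 Dram2 KO interneurons. The 7 rod bipolar markers, from the cells whose cluster had the highest Gabrr1, were higher in the Dram2 KO retina of all 3 pairs, at 6165, 6437 and 4026 against 5128, 5429 and 2879.5 CPM. The 10 ON cone bipolar markers were likewise higher in all 3, at 8301, 7145 and 5526 against 6734, 6552 and 4897 CPM. Both sums rest mostly on 1 gene. Pcp2 gave 12474 of the 18253 interneuron UMIs of the rod bipolar list, and Gng13 gave 15050 of the 25057 of the ON cone list. Trpm1 is on both lists, so the sums are not independent. The rod bipolar-like cluster held 16.1% of the interneuron UMIs of Gabrr1. Gabrr1 stood there at 422, 285 and 381 CPM in the Dram2 WT and 682, 449 and 532 CPM in the Dram2 KO retinas. In the Otor cluster it stood at 394, 359 and 358 CPM in Dram2 WT and 525, 504 and 512 CPM in Dram2 KO. Summed over the bipolar-like clusters led by Cck and Rbp4, Gabrr1 stood at 379, 303 and 355 CPM in Dram2 WT. There it stood at 552, 381 and 362 CPM in Dram2 KO, on 256 UMIs in all, and the genotype groups overlapped. Gabrr1 was lower in Dram2 KO in pairs 2 and 3 of the OFF cone bipolar-like cluster and in pair 2 of the ON cone bipolar-like cluster. These clusters were looked at after their values were seen, and the share of all genes apart within them was not computed. The part of the bipolar markers in the members' differences was not tested. With the replicate number as a block, Glra1 had a log2 fold change of -0.38 ± 0.18 (SE; unadjusted p = 0.0492, adjusted p = 0.998, edgeR), against -0.45 ± 0.38 without it (unadjusted p = 0.268, edgeR). Gria2 had -0.34 ± 0.17 with the block (unadjusted p = 0.0573, adjusted p = 0.998, edgeR). With batch as a term, both had an unadjusted p under 0.05, of 0.0398 for Glra1 and 0.0477 for Gria2 in edgeR and 0.0362 and 0.0311 in limma-voom, with adjusted p of 0.989 or more. Of all 7698 genes tested in interneurons, 214 had an unadjusted p under 0.05 with batch in edgeR and 298 in limma-voom. With the block in edgeR the number was 236, against 86 in the fit without these terms. The difference in Glra1 rested on single retinas, at -0.04 without Dram2 WT replicate 1, -0.15 without Dram2 KO replicate 3 and -0.77 without Dram2 WT replicate 3. In all, 12 of 343 alternative fits of the tested members had an unadjusted p under 0.05, and a pooled share over all genes was not computed.

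Members too sparse for the test were looked at by overlap alone, after their values were seen. Of the 26 members with at least 20 UMIs in interneurons, 2 had genotype groups that did not overlap, against 6.75% of all genes with that many UMIs. Gabrd, the delta subunit, stood at 16.6, 9.62 and 14.2 CPM in the 3 Dram2 WT retinas and 36.6, 21.6 and 24.4 CPM in the 3 Dram2 KO retinas, on 82 UMIs in all. Gabrb1 lay the other way, at 42.7, 28.9 and 22.0 CPM in the 3 Dram2 WT retinas and 20.3, 19.4 and 16.0 CPM in the 3 Dram2 KO retinas, on 96 UMIs. Of these, 41 were in the OFF cone bipolar-like cluster, whose cells and markers by genotype are given above. Fitted without the low-count filter, Gabrd had a log2 fold change of 0.95 ± 0.48 (SE; unadjusted p = 0.0496, adjusted p = 0.954, edgeR) and Gabrb1 one of -0.70 ± 0.45 (SE; unadjusted p = 0.119, adjusted p = 0.954, edgeR), so neither passed over all genes. In that fit Grik4 in photoreceptors (unadjusted p = 0.0286, adjusted p = 0.933, edgeR) and Gabrr2 in mesenchymal cells (unadjusted p = 0.0291, adjusted p = 0.801, edgeR) were the other members with an unadjusted p under 0.05, on 11 and 5 UMIs. Of all genes fitted this way, 394 of 25785 in interneurons and 607 of 30241 in photoreceptors had an unadjusted p under 0.05 in edgeR. Of the 17 members with at least 20 UMIs in photoreceptors, 0 were apart in photoreceptors as a whole (5.94% of all such genes), and of the 5 in glia also 0 (7.36%). Within the split, all Dram2 KO retinas lay above all Dram2 WT retinas for Gria1 and below them for Gria2 in cone-rich cells, each on 14 UMIs (7% of all genes were apart there). For Gabrr2 they lay below in the other photoreceptors, where 5.82% of all genes were apart.

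**Figure D5:**
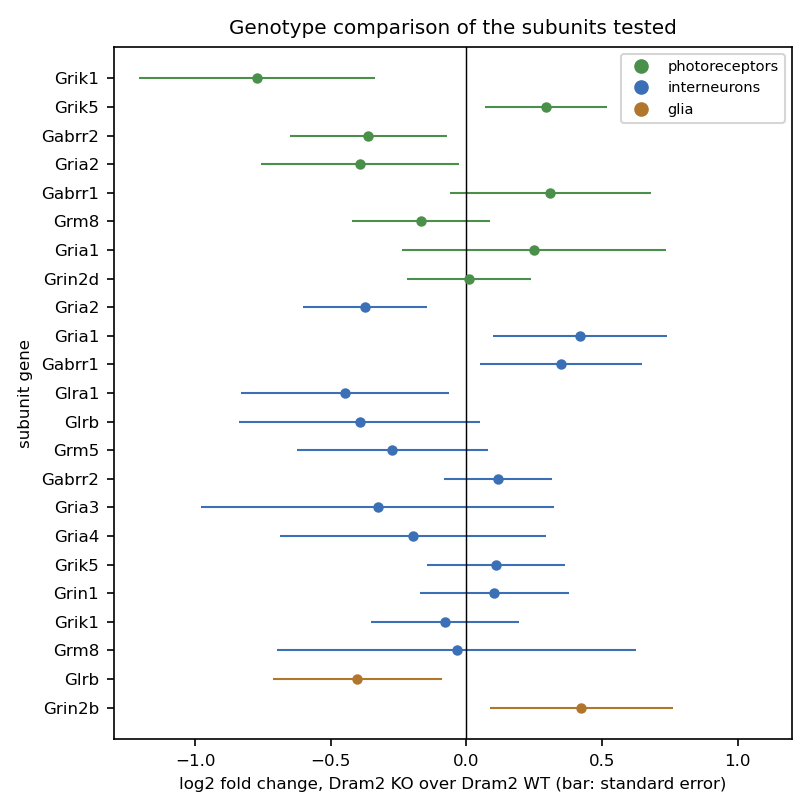
Log2 fold change of Dram2 KO over Dram2 WT (x axis) with its standard error for the 23 tests of members, by cell type and ordered by p within each type. The values run from -0.77 for Grik1 in photoreceptors to 0.42 for Grin2b in glia, and no adjusted p is under 0.05.

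Genes that make, carry or anchor at these synapses were compared in the same fits. Of 11 genes of inhibitory transmitter synthesis and transport, 4 could be tested in interneurons, of 7 of the inhibitory postsynapse 6, of 9 of glutamate transport and synthesis 5, and of 27 glutamate receptor auxiliary and scaffold genes 12. The numbers tested in photoreceptors were 4, 6, 6 and 10, and in glia 3, 3, 4 and 5. None was called in either direction in any type (0 higher, 0 lower), nor did any pass an unadjusted p of 0.05.

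Abundant genes of these lists in interneurons were the following. Slc12a5, the chloride exporter that sets the direction of GABA and glycine currents, stood at 870.5, 885 and 668 CPM in the 3 Dram2 WT retinas and 525, 729 and 594 CPM in the 3 Dram2 KO retinas. Slc6a9, the glycine transporter of glycinergic amacrine cells, stood at 102, 142 and 343 CPM in the 3 Dram2 WT retinas and 12.2, 162 and 505 CPM in the 3 Dram2 KO retinas, and Slc32a1, the vesicular transporter of both inhibitory transmitters, at 103 ± 83.1 CPM. Slc6a9 was highest in the 2 retinas of batch 1, like the amacrine members above. Slc17a7, which loads glutamate into vesicles, stood at 575 ± 66.3 CPM and Slc1a2 (a glutamate transporter) at 244 ± 57.0 CPM. Among scaffold and auxiliary genes, Shank1 stood at 312 ± 57.6 CPM, Dlg4 (PSD-95) at 151 ± 20.7 CPM and Cacng7, an AMPA receptor auxiliary subunit, at 75.7 ± 20.9 CPM. Of the inhibitory postsynapse, Gabarap and Clptm1 stood at 236 ± 37.8 CPM and 119 ± 27.0 CPM.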

How the data were processed

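The 3 Dram2 WT and 3 Dram2 KO retinas were profiled with the 10x Genomics single-cell 3′ v2 kit. Per the submitters' processing notes, reads were processed with Cell Ranger 3.1.0 on GRCm38. The authors deposited raw UMI counts of 52636 genes in 46375 cells, not normalized, with 0 columns left unused here, and a table that gives each cell's sample, genotype, batch and cell type. Types came from the authors' clusters, and the cells without a type (629) entered no comparison. Genes were named with GENCODE M21. Cell names are identifiers and not barcodes, so barcodes shared between libraries could not be counted, and no doublets were removed here.

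UMI counts were summed per retina and type, and CPM were computed from these sums. Genotype was tested per type with edgeR 4.0.16 (glmQLFit and glmQLFTest, TMM factors, filterByExpr, R 4.3.3), with genotype as the only term, over all genes, at an adjusted p of 0.05. This test gives no standard error, so SE is the absolute log2 fold change divided by the square root of the F statistic. Alternatives used limma 3.58.1 (voom) and DESeq2 1.42.0, other scaling, filters and cells, batch or replicate number as a term, and each retina left out. The test was checked on simulated data. Interneurons were clustered without the members (scanpy 1.11.5, leiden at resolution 1, 2000 variable genes z-scored within batch, 30 components, 15 neighbours) and named from marker lists. The most alike pair of libraries, Dram2 WT replicates 1 and 2, had a chi-square per degree of freedom of 1.67 over photoreceptor genes, so none was counted as a repeat. Same-numbered Dram2 WT and Dram2 KO retinas had deviations from their group means correlated at 0.12, 0.31, 0.58 for replicates 1, 2 and 3 in interneurons. As all were over 0.1, directions within pairs and a fit with the replicate number as a block are given there. The main fit, its calls and its smallest p took no account of pairs. Replicate 3 alone is batch 1 in both genotypes, so pair and batch cannot be told apart. Correlations of differently numbered retinas are not reported here, so whether the same-numbered ones stand out from them was not tested. In photoreceptors the correlations of same-numbered retinas were -0.07, 0.60, 0.55 and in glia -0.05, 0.27, 0.45, so not all were over 0.1.

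Classes were ordered in a type with at least 20 UMIs. Named are the leader and runner-up of each class and type, the 3 members with the smallest p per type (none had p under 0.05), members under 20 UMIs, and the 3 pathway genes with the highest interneuron level per list, of which some are not reported here. The cone-rich split, the naming of clusters, the overlap of genotypes outside the tests, and cluster and cone-rich values were chosen after they were seen. The members and lists were chosen with earlier results of these data known. The UMI total behind a level limits its precision.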

Additional observations from a re-analysis of the deposited data

How the results depend on the processing

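No member was called between genotypes under any alternative, and all 8 log2 fold changes named for their p kept their sign in each alternative that fitted them (Grik1 in photoreceptors was too sparse in the stricter choice of cells). Among all 23 tests of members, 20 of 343 alternative fits gave the other sign, in 9 tests, most of them with a retina left out. The count of genes of any kind called was 0 in photoreceptors, interneurons and glia under the other tests, scalings, terms and cells, except without a filter on low counts, where it was 1 in photoreceptors and 1 in interneurons. In mesenchymal cells, where no member was tested, it moved from 0 to 28 without the filter, 21 with batch in edgeR, 35 with batch in limma-voom and 26 with the replicate block. In RPE cells it moved from 0 to 1 with DESeq2, 3 without the filter, 3 and 5 with batch in edgeR and limma-voom, and 4 with the replicate block. Leaving out each retina in turn gave 0 to 7 genes for mesenchymal and 0 to 2 for RPE cells, and 0 elsewhere; the highest counts came without Dram2 KO replicate 2 and without Dram2 WT replicate 3. The cause of these moves was not tested. Blocking on the replicate number changed no other call. In photoreceptors and glia the first pair did not deviate together while the pairs numbered 2 and 3 did, number 3 is also batch 1, and the block left 0 genes called.

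The 21 members higher in interneurons than in photoreceptors in all 6 retinas became 20 when only cells of 500 or more UMIs with a mitochondrial share up to 10% were summed, 15 without the 5% of cells with the most UMIs, and 20 to 22 with a retina left out. Of 20 pairs of class and type with a leading subunit, 19 and 18 kept it under these 2 choices of cells and 17 to 20 with a retina left out. The pairs that changed were Gabra2 and Gabrb1 in photoreceptors and the rho and mGluR classes of glia, all with few UMIs. With interneurons assigned by marker list in place of clusters, all 26 members kept their direction between amacrine and bipolar cells. Depth limits most the members of mesenchymal and RPE cells, where none reached 20 UMIs.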

Other observations

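Cells without a type, which entered no comparison, held 7 to 17 UMIs of the members per retina. Their summed level was 185, 164 and 188 CPM in the 3 Dram2 WT retinas and 186, 262 and 184 CPM in the 3 Dram2 KO retinas, and the groups overlapped.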
